A study of Mus musculus with 6 samples.

Results

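Id1, Id2, Id3 and Id4 encode the ID proteins, the helix-loop-helix inhibitors that pair with other helix-loop-helix transcription factors and carry no DNA-binding region of their own. The members described here are all probe sets whose platform annotation gives one of these 4 symbols, which are 8 of the 22626 probe sets measured. They comprised 1 probe set for Id1, 3 for Id2, 1 for Id3 and 3 for Id4. RNA came from the suprachiasmatic nucleus (SCN), the hypothalamic nucleus that holds the circadian clock, of adult male C57BL/6 mice aged 2 to 4 months and kept in a 14:10 light/dark cycle. One group received a light pulse of 2400 lux for 30 minutes that began 1 hour after lights off, and the other a sham light pulse (a dark pulse) at the same time. Tissue was collected as the pulse ended, 1.5 hours after lights off. Each group had 3 Affymetrix arrays, and by the protocol each array carried RNA pooled from 3 mice, with 6 laser-captured sections of 12 μm from each mouse, so that no value belongs to a single animal.

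ID proteins bind the E proteins, which would otherwise pair with tissue-specific helix-loop-helix factors and switch on genes of differentiation, and this binding holds the partner off the DNA. Their genes are known as targets of bone morphogenetic protein (BMP) signaling through SMAD factors. In the adult brain they are expressed in astrocytes, endothelial cells and neural precursors as well as in some neurons, and in mice Id2 has been linked to the circadian clock, since the ID2 protein can bind CLOCK and BMAL1.

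In the GRCm38.p6 assembly of the mouse genome, Id1 lies on chromosome 2 (152736251 to 152737410), Id2 on chromosome 12 (25093799 to 25096092), Id3 on chromosome 4 (136143822 to 136145392) and Id4 on chromosome 13 (48261116 to 48266028). The study asked whether light-induced genes share a CRE, the element bound by CREB, and a TATA element in their promoters. RefSeq promoters were at hand for Id2, Id3 and Id4 and are shown for that reason. Each runs from 250 bases before to 50 after the start of the gene, written 5′ to 3′ along the strand of the gene, at chr12:25096043-25096342 (minus strand) for Id2, chr4:136143572-136143871 (plus strand) for Id3 and chr13:48260866-48261165 (plus strand) for Id4. Capitals mark every match, on either strand, to the full CRE TGACGTCA, the CRE half-site TGACG, the TATA sequence TATAA, its variant CATAAAA and the E-box CACGTG.
Id2: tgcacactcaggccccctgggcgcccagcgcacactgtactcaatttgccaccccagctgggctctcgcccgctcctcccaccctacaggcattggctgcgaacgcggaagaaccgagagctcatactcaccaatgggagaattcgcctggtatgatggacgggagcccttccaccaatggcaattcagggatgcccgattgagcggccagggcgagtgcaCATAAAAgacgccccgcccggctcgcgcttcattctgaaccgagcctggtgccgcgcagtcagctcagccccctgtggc
Id3: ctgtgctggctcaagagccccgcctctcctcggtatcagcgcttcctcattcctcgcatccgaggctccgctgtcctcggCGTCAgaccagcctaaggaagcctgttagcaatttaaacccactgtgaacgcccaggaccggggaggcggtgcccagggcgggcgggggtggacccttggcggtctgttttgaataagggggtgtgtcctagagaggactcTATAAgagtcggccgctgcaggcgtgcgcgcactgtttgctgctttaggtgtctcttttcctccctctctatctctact
Id4: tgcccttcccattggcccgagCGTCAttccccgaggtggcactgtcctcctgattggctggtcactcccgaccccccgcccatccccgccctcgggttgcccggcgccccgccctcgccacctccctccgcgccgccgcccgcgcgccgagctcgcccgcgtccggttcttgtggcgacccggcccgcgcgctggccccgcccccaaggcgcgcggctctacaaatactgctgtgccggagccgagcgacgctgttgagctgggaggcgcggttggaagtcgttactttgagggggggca

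In these windows Id3 had TATAA at 29 bases upstream of its start and a reversed half-site at 170 bases upstream. Id2 had CATAAAA, also at 29 bases upstream, and no half-site. Id4 had a reversed half-site at 229 bases upstream and neither TATA sequence. None of the 3 windows held TGACGTCA or CACGTG. Among all 32851 RefSeq promoters of this length, 20.8% held the half-site (which includes those with the full CRE), 1.79% the full CRE, 24.9% TATAA, 4.19% CATAAAA and 7.15% CACGTG. Of 12 genes on a list of light-induced genes 10 had an entry, and 6 of these held the half-site, 2 the full CRE, 4 TATAA, 1 CATAAAA and 4 CACGTG. A gene counted here when any of its entries matched, while the percentages count single entries. The study's own search took a longer region before the start codon and asked for conservation between mammals. A match of letters is a description of the sequence and not a binding site.

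The arrays were scaled to a common level by the authors, and correlations of log2 signals between arrays lay between 0.886 and 0.935. All 8 SCN marker genes checked were kept for testing and 0 were called. Among them was Vip, at 43194 to 64589 after the light pulse and 30271 to 41960 after the sham light pulse. In 2 of the 8, Vip included, every light pulse array read higher, as in 5.62% of all kept probe sets. Light pulse replicate 3 stood apart, with a Ttr signal of 110323, against at most 295.6 on the other arrays. Ttr encodes transthyretin and marks choroid plexus, and the other 4 measured markers of choroid plexus and ependyma were not kept. Of these, Folr1 (147.3), Sostdc1 (125.7) and Kl (72.7) also had their highest signal on this array, and Foxj1 did not. Results that rest on this array are given with and without it. A captured nucleus holds many cell types, and in such bulk RNA fewer cells of a type and less RNA per cell cannot be told apart.

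Id4 gave the most intense signals of the family. ID4 is the member best known from neural precursors and astrocytes. Its standing probe set, 1450928_at, the one with the highest mean signal, read 10982, 7852 and 10078 on light pulse replicates 1 to 3, and 10451, 9440 and 8002 on sham light pulse replicates 1 to 3. The groups overlapped along nearly their whole range. Between 97.4% and 98.2% of an array's probe sets read lower, and Id4 ranked between 273 and 392 among the 12393 genes, each counted once by its highest probe set. These ranks order hybridization signals, in which probe sets of equal transcript level can differ. The light pulse arrays exceeded the sham light pulse arrays by 0.05 on the log2 scale (standard error, SE, 0.21, limma adjusted p = 0.988), which is a 1.03-fold ratio with a 95% confidence interval from 0.751 to 1.42. For this probe set, a change of 2-fold in either direction lies outside the interval.

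The other 2 Id4 probe sets, designed from the same public sequence, were dimmer. Probe set 1423259_at read 5617, 4941 and 8602 after the light pulse, and 4695, 6225 and 5175 after the sham light pulse. Its highest value came from light pulse replicate 3, and the difference of mean log2 signals, light pulse minus sham light pulse, was 0.22 (SE 0.25, limma adjusted p = 0.961). Without that array the difference was -0.02. Probe set 1423260_at read 2778, 2268 and 1776 after the light pulse, and 2592, 973 and 1347 after the sham light pulse. Here sham light pulse replicate 1 lay among the light pulse arrays. The difference was 0.57 (SE 0.35, limma adjusted p = 0.960). The 1.49-fold ratio had an interval from 0.888 to 2.49, which includes 2-fold. The log2 difference was 0.97 without sham light pulse replicate 1 (limma adjusted p = 0.889, unadjusted p = 0.0115). It was 0.26 without sham light pulse replicate 2. All 3 Id4 probe sets had estimates above 0, but their order over the arrays differed, and in none of them were the groups apart.

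Id2 had the next highest signals, at 1 of its 3 probe sets. Probe set 1435176_a_at read 2314, 2030 and 3301 after the light pulse, and 2614, 2756 and 1880 after the sham light pulse. The highest value was that of light pulse replicate 3 and the lowest that of sham light pulse replicate 3, with the other arrays in between. The signal exceeded 91.2% to 94.8% of an array's probe sets. The comparison gave a log2 difference of 0.07 (SE 0.28, limma adjusted p = 0.988), or 1.05-fold with an interval from 0.694 to 1.58. The log2 difference was -0.14 without light pulse replicate 3 and -0.11 without sham light pulse replicate 3, so the data give no direction for Id2.

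The remaining Id2 probe sets lay near the floor of the arrays. Probe set 1453596_at read 27.8, 29.4 and 111.1 after the light pulse, and 50.8, 43.3 and 33.4 after the sham light pulse. Probe set 1422537_a_at read 9.9, 41.2 and 17.0 after the light pulse, and 68.6, 46.8 and 81.4 after the sham light pulse. All 12 values fell below 118.2, the lowest signal kept for testing. For 1422537_a_at the light pulse arrays lay wholly below the sham light pulse arrays, while those of the brighter Id2 probe set overlapped. Fitted with all probe sets, it differed by -1.75 in log2 (SE 1.06, limma adjusted p = 0.963), and 1453596_at by 0.10 (SE 1.00, limma adjusted p = 0.993). The 3 probe sets of this gene thus differed widely in signal, and those under the lowest signal kept give no direction for Id2 either.

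Id3 had signals of intermediate height. The ID3 protein, like ID1, is known from endothelial cells and neural precursors. Its single probe set, 1416630_at, read 439.8, 543.1 and 608.0 after the light pulse, and 465.8, 373.7 and 356.0 after the sham light pulse. Both light pulse replicates 2 and 3 lay above every sham light pulse array, and light pulse replicate 1 fell below sham light pulse replicate 1. The mean signal was 530.3 ± 84.8 after the light pulse and 398.5 ± 59.0 after the sham light pulse (SD, n = 3 arrays each), and between 73.0% and 81.2% of an array's probe sets read lower. The log2 difference of 0.41 (SE 0.31) did not pass the test (limma adjusted p = 0.960), and the 1.33-fold ratio had an interval from 0.841 to 2.10. Without light pulse replicate 3 the log2 difference was 0.30.

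Id1 was the dimmest of the family and had the highest estimate among the standing probe sets of the 4 genes. Its probe set, 1425895_a_at, read 144.5, 202.3 and 111.8 after the light pulse, and 53.2, 55.5 and 121.3 after the sham light pulse. Sham light pulse replicate 3 lay above light pulse replicate 3, and this pair alone kept the groups from being apart. The probe set reached the lowest signal kept on 3 arrays, light pulse replicates 1 and 2 and sham light pulse replicate 3, and its rank 3 signal of 121.3 set it just inside the filter. The share of an array's probe sets that read lower varied from 39.9% to 64.8%. The estimate was 1.06 in log2 (SE 0.67, limma adjusted p = 0.960), a 2.09-fold ratio whose interval ran from 0.770 to 5.67. Without light pulse replicate 3 the log2 difference was 1.27. At this signal the arrays could not separate no change from a change of several fold.

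**Figure D1:**
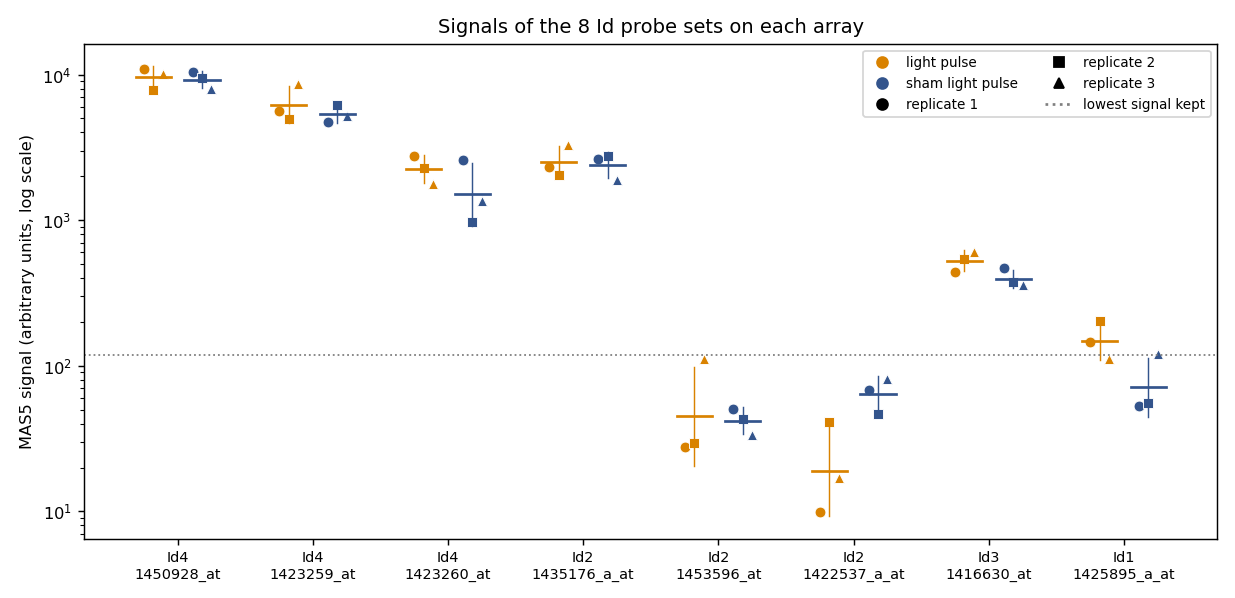
Signals of the 8 Id probe sets on a log axis (MAS5, arbitrary units), with 1 point per array (light pulse left, sham light pulse right; marker shapes give the replicate number). Mean and SD of the log2 signals are drawn as a horizontal and a vertical bar, and the dotted line is the lowest signal kept, 118.2; the groups overlap for every probe set except Id2 1422537_a_at, which lies under that line.

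On each of the 6 arrays the standing probe sets followed the order Id4, Id2, Id3, Id1. Between neighbours in this order the log2 signals differed by 1.61 to 2.25 for Id4 over Id2, 1.90 to 2.88 for Id2 over Id3 and 1.42 to 3.13 for Id3 over Id1, so that no neighbours changed places. The order is one of hybridization signals and holds for the standing probe sets, since the other Id2 probe sets read lower than Id3 on every array. Id4 1423260_at also read lower than the standing Id2 probe set on each sham light pulse array and on light pulse replicate 3. The spread within groups also differed between members. The pooled SD of the log2 signal was 0.22 for Id3 and 0.22 for Id4, and 12.7% and 13.1% of kept probe sets had a smaller one. For Id2 it was 0.33 and for Id1 0.56, against a median of 0.43 over all kept probe sets.

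**Figure D2:**
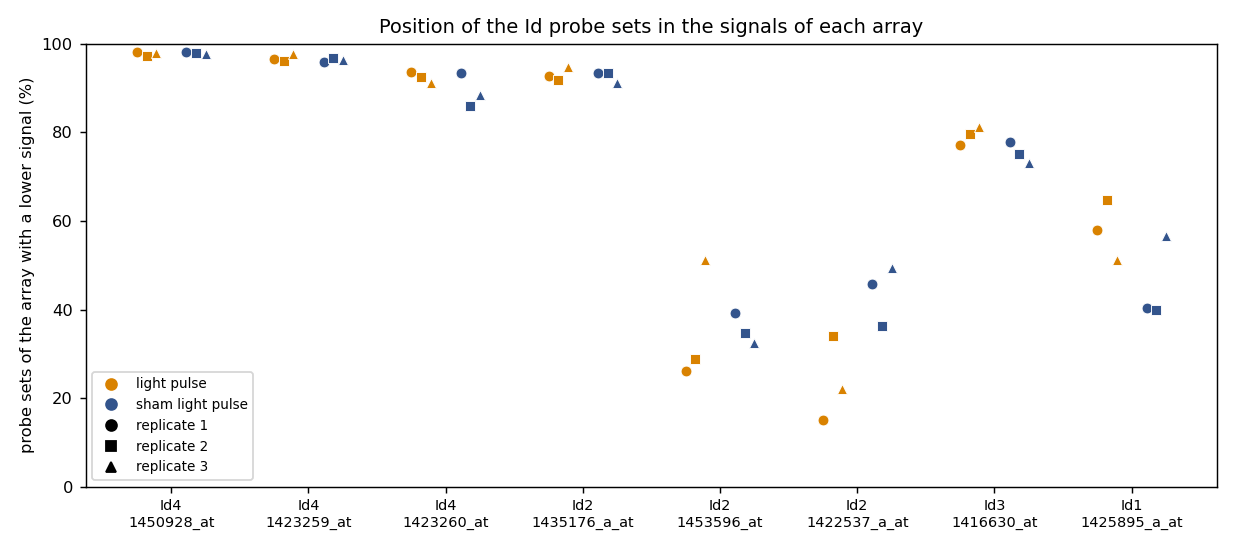
Percentage of the 22626 probe sets of the same array that had a lower signal than each Id probe set, with 1 point per array (light pulse left, sham light pulse right). The Id4 standing probe set stays between 97.4% and 98.2% on every array, while Id1 ranges from 39.9% to 64.8%.

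None of the Id genes passed the comparison between light pulse and sham light pulse. Of the 8 probe sets 6 were kept for testing, and limma called 0 of these 6 at an adjusted p under 0.05, where it called 7 of all kept probe sets (0.0677%), all higher after the light pulse. A count of 0 in 6 is therefore near the background. At an unadjusted p under 0.05 limma gave 0 of the 8 Id probe sets, and 446 of the kept probe sets (4.31%). The Cyber-T test of the study's methods also gave 0 of the 8 at that level. In none of the 6 kept Id probe sets did the groups separate. Of all kept probe sets, 5.62% had every light pulse array above every sham light pulse array and 4.46% had them below. A count of 0 in 6 is near this background too. With 3 arrays a side, 0.1 is the smallest two-sided p that exact permutation allows. The 4 genes had a median log2 fold change of 0.24, beside 0.00 over all kept genes. The median absolute log2 fold change over all kept probe sets was 0.26. All 4 estimates were above 0, as were 50.1% of those of all kept probe sets. The estimates of Id2 and Id4 changed sign when single arrays were left out. For scale, the immediate-early gene Fos read 14254, 10400 and 14457 after the light pulse, and 667.7, 297.6 and 370.0 after the sham light pulse. It rose by 4.94 in log2 (SE 0.31, limma adjusted p = 3.35e-06), above the upper confidence limit of each Id probe set, of which the highest was 2.50 for Id1.

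**Figure D3:**
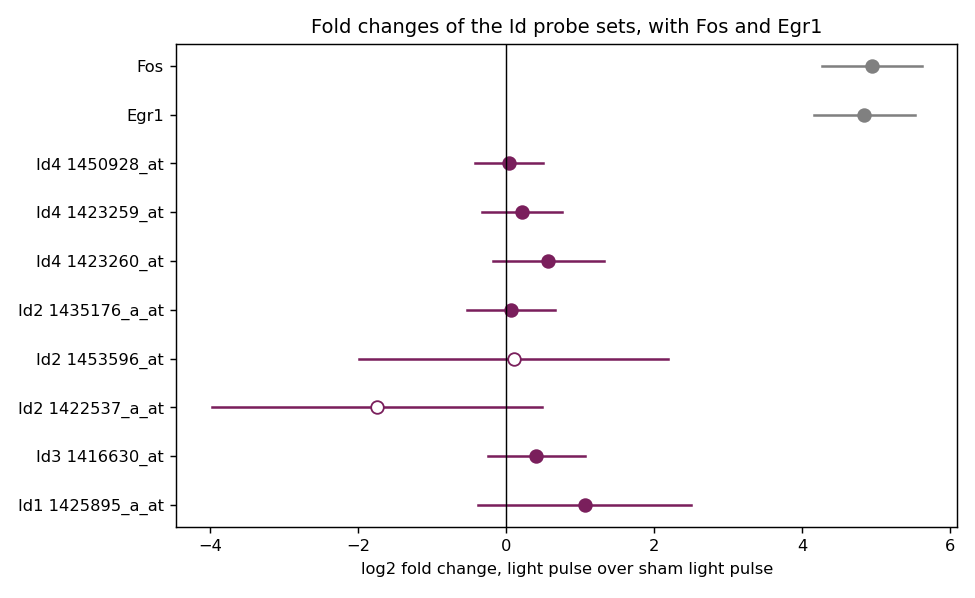
Log2 fold changes (light pulse over sham light pulse) of the 8 Id probe sets in purple and of Fos and Egr1 in grey, with 95% confidence intervals from limma. Open points are the Id2 probe sets that the filter left out, and all 8 Id intervals include 0, while those of Fos and Egr1 lie above 4.

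Among the partners of the ID proteins and the genes listed with them 0 were called. With 0.0677% of all kept probe sets called, a list of a few genes would be near that background. Of the E proteins, the direct partners, Tcf12 and Tcf4 were kept and Tcf3 was not. Tcf12 read 4537, 3243 and 6370 after the light pulse, and 3632, 5532 and 2987 after the sham light pulse, and Tcf4 ran from 882.6 to 1626 over the 6 arrays. The log2 difference was 0.21 (SE 0.30) for Tcf12 and -0.30 (SE 0.28) for Tcf4. Both E proteins overlapped between the groups. Of 10 neural and glial helix-loop-helix factors measured, Olig1 alone was kept, a factor of the oligodendrocyte lineage, with a log2 fold change of 0.06 (SE 0.24), and Olig2 was the brightest of those left out. Of 8 genes of the Hes and Hey family, 3 were kept, Hes5 at 0.10 (SE 0.32), Hes6 at 0.38 (SE 0.29) and Hey1 at -0.40 (SE 0.38). On a list of ETS, RB and Pax genes, cell cycle inhibitor genes and Usp1, 8 of 13 were kept, with a median of 0.05. The brightest were Usp1, a deubiquitinase that stabilizes ID proteins, at 0.07 (SE 0.28), and the retinoblastoma gene Rb1 at 0.11 (SE 0.33).

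BMP signaling genes, whose pathway acts on Id transcription, had 0 called among 8 kept, which is again near the background of 0.0677%. Of 12 ligands and antagonists measured 10 were left out by the filter, among them Bmp2, Bmp4, Bmp6 and Bmp7. Fstl1, a follistatin relative, read higher on every light pulse array, as 5.62% of all kept probe sets did, with a log2 fold change of 0.29 (SE 0.32, limma adjusted p = 0.960), and Gdf10 had -0.40 (SE 0.59). Of 13 receptors and SMADs 6 were kept, with a median of -0.22, of which 2 had estimates above 0 and 4 below. Smad4, the SMAD shared by the BMP and TGF-beta branches, varied widely, at 8149, 2715 and 1308 after the light pulse, and 8994, 2117 and 4050 after the sham light pulse. Acvr2a, a receptor of activins and BMPs, read lower on every light pulse array, as 4.46% of all kept probe sets did, with a log2 fold change of -0.37 (SE 0.24, limma adjusted p = 0.960).

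The clock factors that ID2 can bind had estimates near 0 as well, with Clock at -0.10 (SE 0.29) and Arntl, which encodes BMAL1, at -0.10 (SE 0.29). Of 5 helix-loop-helix clock genes measured 4 were kept and 0 called. Of the Period and cryptochrome genes all 5 were kept and 0 called, with a median of 0.60. In 3 of the 5 every light pulse array lay above every sham light pulse array, where 5.62% of all kept probe sets did. These were Per1 at 0.86 (SE 0.41), Per3 at 0.77 (SE 0.39) and Cry2 at 0.60 (SE 0.45), each with a limma adjusted p of 0.960. The brightest of the 5, Cry1 and Per2, stood at -0.13 (SE 0.30) for Cry1 and 0.24 (SE 0.33) for Per2 in log2. Of the 12 light-induced genes, by contrast, 7 were called, with a median of 2.26. The study chose its candidates on these same arrays, and the 12 listed are those whose increase quantitative PCR also found. Their calls here are no independent evidence.

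**Figure D4:**
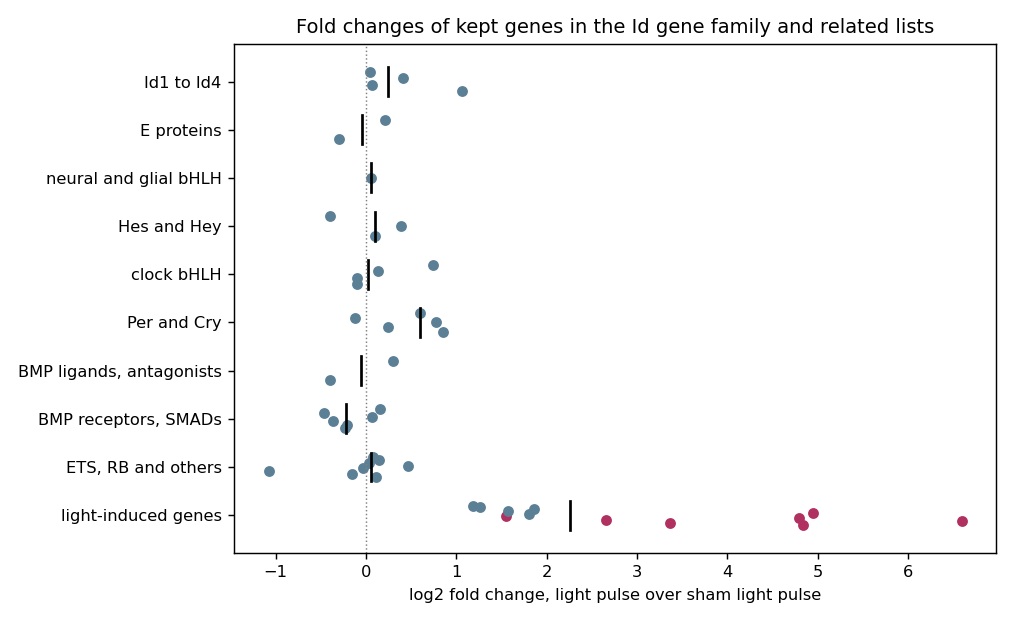
Log2 fold changes (light pulse over sham light pulse) of kept genes. They belong to Id1 to Id4, to lists of partners, related genes and upstream signals, and to the light-induced genes. Each point is a gene, vertical bars are medians and red points are called by limma. The Id genes and the related lists lie between -1.07 and 1.06, and the 7 called genes are all among the light-induced ones.

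Markers of the cell types known to express Id genes were set beside these values. The summed signal of 11 astrocyte markers lay between 50392 and 55487 after the light pulse and between 47340 and 54711 after the sham light pulse. Of these, 9 were kept and 0 called, with Gja1 (connexin 43) at 0.12 (SE 0.21) and Aldoc at 0.02 (SE 0.23). Gja1 and Aldoc made up the largest part of the sum. Over the 9 kept markers 6 estimates were above 0 and 3 below, from -0.54 (SE 0.31) for Aqp4 to 0.98 (SE 0.53) for Gfap. The astrocyte sums overlapped between the groups, as did the standing probe sets of all 4 Id genes. The summed signal of 10 endothelial and pericyte markers did not overlap, at 2961 to 3215 after the light pulse and 3824 to 5424 after the sham light pulse. All 5 kept members had estimates below 0 and 0 were called, among them the pericyte gene Rgs5 at -0.46 (SE 0.28), the tight junction gene Cldn5 at -0.47 (SE 0.30) and the VEGF receptor gene Flt1 at -1.55 (SE 0.48, limma adjusted p = 0.960). Rgs5 made up the largest part of this sum. It read 1490, 1710 and 1537 after the light pulse and 2974, 1957 and 1737 after the sham light pulse. Of the 5 kept members 2, Rgs5 and Flt1, read lower on every light pulse array, as 4.46% of all kept probe sets did. No such share was worked out for sums. The defining endothelial genes Pecam1, Cdh5, Kdr, Tek and Tie1 were not kept, with signals of at most 177 on any array. Their estimates went both ways. They were 2.05 (SE 1.18) for Tie1, 0.81 (SE 1.11) for Pecam1 and 0.17 (SE 0.76) for Tek. Kdr had -1.41 (SE 1.33) and Cdh5 -1.68 (SE 1.30). Estimates with errors this wide give no direction, so the list as a whole was not shown to have one. The part of vascular RNA in the values of the Id genes was not tested.

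Over the 6 arrays, the genes most like each Id gene were those with the smallest root mean square difference between log2 signals centred on their own means, among the 6731 other genes with a kept standing probe set. For Id3 these were Rps14 (0.041), a ribosomal protein gene, Ndrg1 (0.063) and Tor1a (0.069). For Id2 they were Gnpnat1 (0.046), Zfp955a (0.054) and Hsd17b12 (0.067), and for Id4 Krtcap2 (0.056), Arf4 (0.063) and Snrpe (0.064). The dim Id1 had less close matches in Srrt (0.207), Pick1 (0.234) and Tyk2 (0.274). Between Id genes the difference was smallest for Id2 and Id4 (0.206) and largest for Id1 and Id2 (0.874), and no Id gene was among the closest genes of another. With so few arrays and so many genes close matches arise readily, and these are given as a description.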

How the data were processed

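The authors deposited 1 signal intensity per probe set on a linear scale, made with MAS5 in GCOS and scaled per array, for Affymetrix Mouse 430A 2.0 arrays. For each array the authors amplified 1 ng of total RNA linearly in 2 rounds. Groups and replicate numbers came from the sample titles, and gene symbols from the platform annotation, where 20380 of 22626 probe sets had 1 symbol, 691 several and 1555 none. All 4 Id symbols matched the GRCm38.p6 gene table through their Entrez IDs.

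Signals were taken to log2 with no offset. Probe sets were ordered by their rank 3 signal over the 6 arrays and kept down to 118.2, which keeps as many as the study kept by present calls, not used here. limma 3.58.1 in R 4.3.3 compared the groups (lmFit, then eBayes with a trend on signal, two-sided tests, Benjamini-Hochberg adjustment across the kept probe sets, threshold 0.05). Id probe sets that were not kept take their values from a second fit without the filter. A gene with several probe sets is represented by its standing probe set, the brightest in mean log2 signal. Cyber-T, the test of the study's methods, was written anew (window 101, prior weight 10) as an alternative, and both tests were tested on simulated data. All Id probe sets are named, and of each list the called members or the 2 brightest. Tcf3, Hey1, Per1, Per3, Cry2, Flt1, Vip, Aqp4 and Gfap were named after their values were seen. So were the BMP, choroid plexus and endothelial genes left out by the filter. The members and lists were chosen with earlier results of these data known. It is not stated whether the pools shared mice, so the p-values describe only how these 6 arrays varied, and their number limits the precision. No fold change or p-value of the authors was used.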

Additional observations from a re-analysis of the deposited data

How the results depend on the processing

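No Id probe set was called under any of the 15 alternatives. Other filters, limma without the intensity trend, Cyber-T, the replicate block and 1 probe set per gene leave the estimate unchanged. Under the settings that could move it, Id1, Id3 and Id4 1423260_at kept estimates above 0. Id1 gave 0.84 to 1.45 with single arrays left out and 0.70 with an offset of 50. In limma without the intensity trend the unadjusted p was 0.0323 for Id1 and 0.0283 for Id2 1422537_a_at. Id2 reversed, with a range of -0.14 to 0.21 over the fits without 1 array. So did Id4, at -0.0319 with quantile normalization and -0.0577 to 0.187 without 1 array, and Id4 1423259_at, at -0.0164 to 0.384 without 1 array. The dim Id2 1453596_at reversed to -0.139 with quantile normalization and ran from -0.551 to 0.449 without 1 array, while Id2 1422537_a_at stayed below 0, at -0.68 with the offset. The cause of these changes was not tested. Over all kept probe sets 7 were called, against 4 without the intensity trend, 5 by Cyber-T and 5 to 8 without 1 array. Replicate numbers are shared between the groups, but same-numbered arrays deviated together with correlations of only 0.096, -0.192 and -0.129, so they were not taken as pairs. With the replicate block limma called 6 probe sets and no Id gene. Probe sets that do not stand for their gene have no value where 1 probe set per gene was used. Signals near the floor, as at Id1 and the dim Id2 probe sets, limit what could be detected.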
